A study of Zea mays with 2 samples.

Results

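The vacuolar proton pumps of maize (Zea mays) endosperm are described here as 21 of 33283 measured genes, chosen by the words of the gene descriptions in the data. Of these, 18 are described as subunits of the vacuolar proton ATPase (V-ATPase), 2 as proton-pumping pyrophosphatases (H+-PPases) and 1 as a vacuolar proton pump-like protein. The search words also covered plasma membrane, calcium-transporting and phospholipid-transporting ATPases, and 0 descriptions matched any of these. The group is therefore one of vacuolar pumps, and the plasma membrane proton ATPases are described only as genes outside it.

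Endosperm, the storage tissue of the kernel, was taken at 15 days after pollination from wild type and from dek33, a defective kernel mutant, and its RNA was sequenced. The dek33 gene is known to encode PyrR, an enzyme of riboflavin synthesis. The labels name neither the allele nor the genetic background. By the study's design the profiles were made in triplicate, but each genotype is represented by 1 FPKM value per gene. No difference below has a replicate check or a p-value, and each compares these libraries rather than the genotypes.

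The V-ATPase is a rotary enzyme that spends ATP to move protons into the vacuole and other compartments. Its outer sector, V1, holds the catalytic subunit A, the nucleotide-binding subunit B and the stalk subunits, and its membrane sector, V0, holds the proteolipid ring that carries protons. The H+-PPase is a single-polypeptide pump that does the same work with pyrophosphate, a by-product of many biosynthetic reactions, ADP-glucose formation for starch among them. The proton gradient that both pumps build drives the exchangers that load the vacuole with ions, sugars and metabolites.

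Levels are in FPKM, sequenced fragments scaled to the length of the transcript and the size of the library, so they can be set side by side between genes. Differences are log2((dek33 + 1)/(wild type + 1)), and a gene counts as higher or lower if this difference reaches 2-fold and either library shows 5 FPKM or more. The dek33 values add up to 761571 FPKM and those of wild type to 672660, from an unknown number of reads, and 20692 and 19860 genes reached 1 FPKM. Most genes had higher values in dek33, with a median log2 ratio of 0.44, a factor of 1.36, over the 21688 genes that reached 1 FPKM in either library. This shift was larger in more abundant genes, with a median of 0.52 over 14348 genes at 5 FPKM or more and 0.64 over 6181 genes at 20 FPKM or more. Centred ratios below have 0.44 subtracted. PyrR (GRMZM2G090068) had 6.44 FPKM in dek33 and 4.55 in wild type. A mutant gene may still be transcribed, so these levels leave the labels unchecked. The 4 starchy endosperm markers, 3 alpha zeins and granule-bound starch synthase 1, were abundant in both libraries, with a summed FPKM of 23388 in dek33 and 78100 in wild type. The 3 embryo markers summed to 308 against 6514 and the 3 basal transfer layer markers to 163 against 297, and none of the markers was listed at 0. Their part in the results below was not tested.

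V-ATPase subunits were mostly higher in dek33, whereas the main H+-PPase gene was lower, most of these differences being under 2-fold. Of the 18 V-ATPase genes, 17 had a higher value in dek33 and 1 a lower one, or 15 and 3 after centring. This 94.4% is near the background, since 87.4% of all genes that reached 20 FPKM, as 17 of these 18 did, had a higher value in dek33, and 67.1% did so after centring. Their FPKM summed to 1444 in dek33 and 930 in wild type, 1.55-fold higher in dek33. The median of single-gene ratios over all genes that reached 20 FPKM was also 1.55-fold, but that is a different measure from a quotient of sums. The summed FPKM of all genes was 1.13-fold higher in dek33. Of that sum the V-ATPase genes held 0.190% in dek33 and 0.138% in wild type. The 2 H+-PPase genes together had 173 FPKM in dek33 and 204 in wild type, a sum 1.19-fold lower in dek33. Within a library, the summed FPKM of H+-PPase per summed FPKM of V-ATPase was 0.119 in dek33 and 0.22 in wild type. This quotient was 1.84-fold lower in dek33, and it does not depend on how the libraries are scaled. All 21 genes passed 5 FPKM, and none was listed at 0 in either library.

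**Figure D1:**
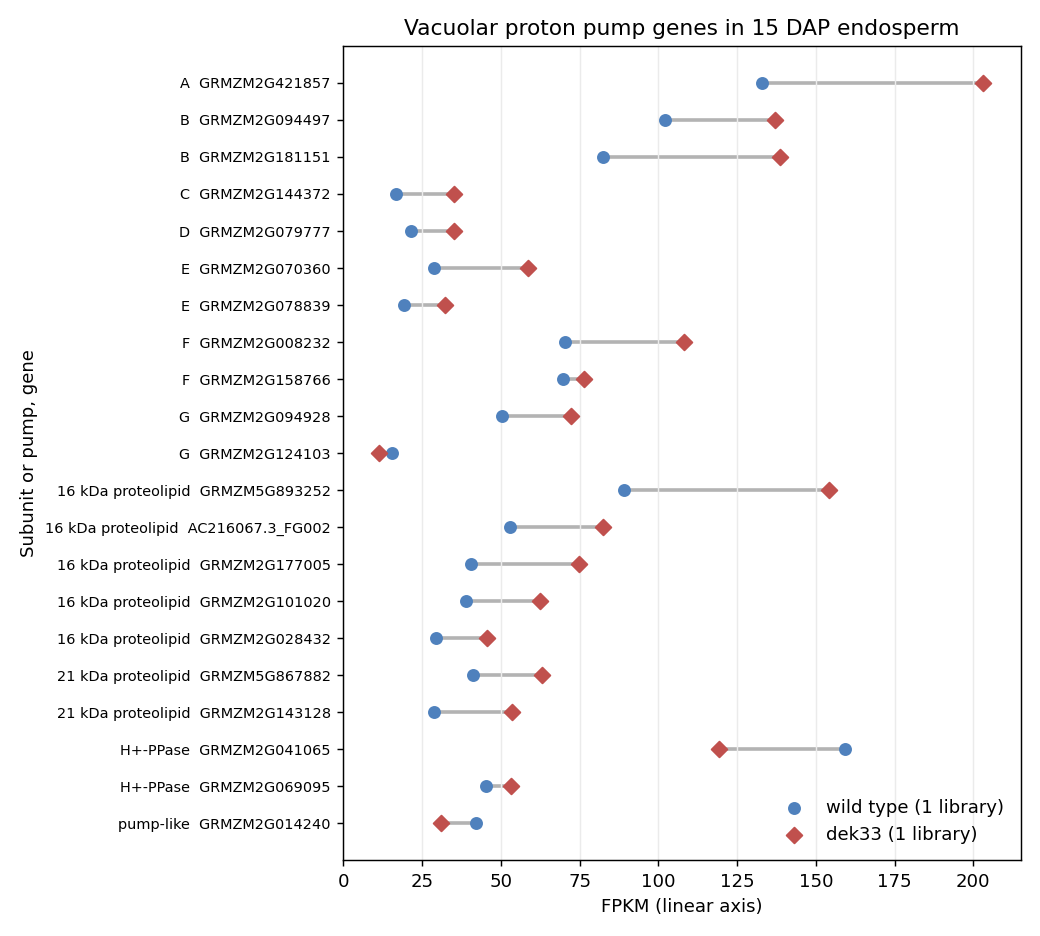
FPKM (linear axis) of the 21 vacuolar proton pump genes, 1 line per gene, in the wild type library (circles) and the dek33 library (diamonds). The dek33 value is to the right of the wild type value in 18 genes and to the left in 3, GRMZM2G124103, GRMZM2G041065 and GRMZM2G014240.

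Few of these differences reached the 2-fold limit. On the deposited scale 2 of the 21 genes were higher (9.52%) and 0 lower, beside 14.8% higher and 4.02% lower among all 14348 genes at 5 FPKM or more. In the 6181 genes that reached 20 FPKM, 19.5% were higher and 4% lower. After centring 0 of the 21 were higher and 0 lower, beside 4.4% and 6.79% of all genes. The share of pump genes past 2-fold was thus no larger than the background in either direction. Their median log2 ratio was 0.62, beside 0.64 over all genes at 20 FPKM or more, a level that 20 of the 21 reach. For the 18 V-ATPase genes it was 0.65, or 0.21 after centring. The ratios of 14 of the 21 lay between 0.32 and 0.92, the quartiles of the genes at 20 FPKM or more. The 2 above this range were a subunit C and a subunit E gene, and the 5 below it were 1 copy each of subunits F and G, both H+-PPases and the pump-like gene.

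**Figure D2:**
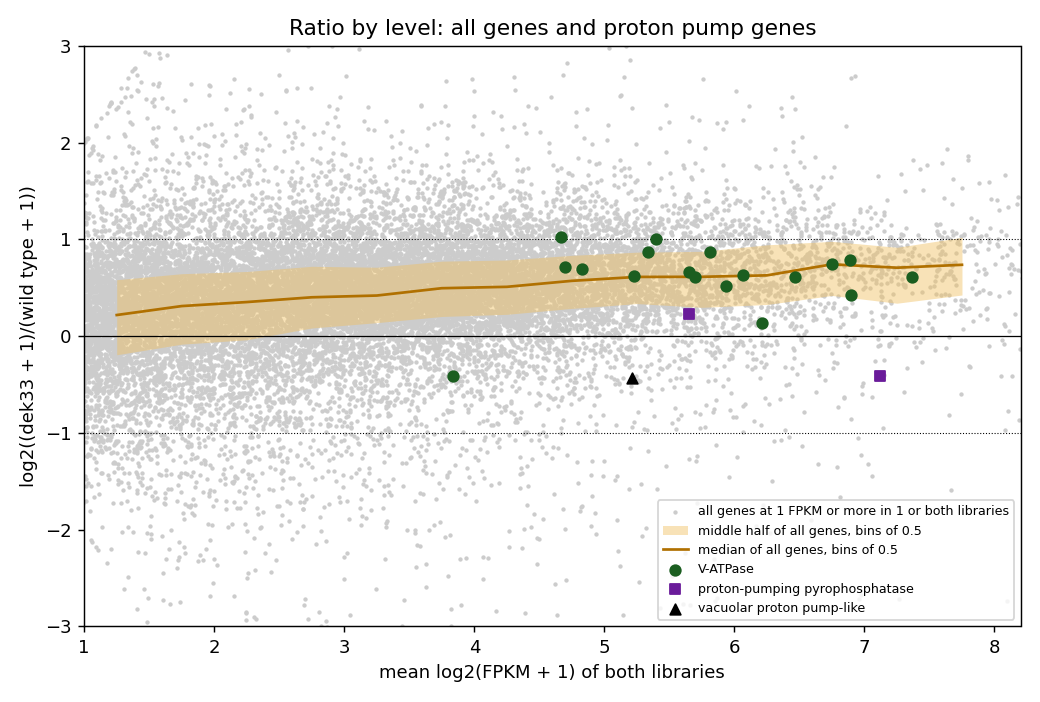
log2((dek33 + 1)/(wild type + 1)) against mean log2(FPKM + 1) for all genes that reached 1 FPKM in either library (grey, points beyond the axes not drawn), with the median and the interquartile range of all genes in bins of 0.5, dotted lines at 2-fold and the 21 pump genes by family. Most V-ATPase genes lie along the line of all genes, 2 of them at the upper 2-fold line, and the H+-PPase genes and the pump-like gene lie under it.

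The catalytic and nucleotide-binding subunits of V1 were among the most abundant pump genes. Subunit A, which binds and splits ATP, had 1 gene (GRMZM2G421857, RefSeq synonym vpp3, chromosome 4, 235983602 to 235992984, B73 RefGen_v3). It had 203 FPKM in dek33 and 133 in wild type, 1.52-fold higher in dek33 on the FPKM + 1 scale. It ranked 1 among the 21 genes in dek33 and 2 in wild type. Subunit B, its non-catalytic partner in the ATP-binding head, had a gene on chromosome 9 (GRMZM2G094497, vpp2, 79417971 to 79429946) and another on chromosome 6 (GRMZM2G181151, 104274311 to 104281719). GRMZM2G094497 had 137 FPKM in dek33 and 102 in wild type, and its log2 ratio of 0.42 became -0.021 after centring. GRMZM2G181151 had 138 and 82.3, a log2 ratio of 0.74 and 0.30 after centring. The copies were level in dek33, where GRMZM2G094497 gave 49.7% of subunit B FPKM, against 55.4% in wild type. Summed over copies, subunit B stood at 1.36 times subunit A in dek33 and 1.39 times in wild type, so the proportion of these subunit transcripts was nearly the same in both libraries.

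Subunits C, D and E held both genes past 2-fold. They are read here as V1 stalk subunits, which link the head of V1 to the membrane and transmit or brace its rotation. Subunit C (GRMZM2G144372, chromosome 6, 167313271 to 167317323), a brace between the sectors, had 35.2 FPKM in dek33 and 16.9 in wild type, 2.03-fold higher on the FPKM + 1 scale. The more abundant subunit E gene (GRMZM2G070360, RefSeq synonym dba2, chromosome 3, 212237694 to 212247053), a part of the outer stalk, had 58.6 and 28.8. Its log2 ratio of 1.00 lies at the limit itself, and both genes stood under it after centring, at 0.58 for subunit C and 0.56 for this subunit E gene. The other subunit E gene (GRMZM2G078839, chromosome 3, 2719691 to 2728544) had 32.2 and 19.2, a log2 ratio of 0.72. The gene described as subunit D 1 (GRMZM2G079777, chromosome 10, 60152246 to 60163212) had 35.1 and 21.3, a log2 ratio of 0.69. The descriptions write subunit letters in capitals, so those of C, D and E do not by themselves tell a V1 subunit from a V0 subunit named with the same small letter. Among the subunits named in the descriptions, A to G and the 16 kDa and 21 kDa proteolipids, subunit C was the least abundant in wild type. It stood at 0.127 times subunit A in wild type and 0.173 times in dek33. Any V-ATPase subunit outside these is left out of the ranking and the sums. Summed subunit E stood at 0.361 times subunit A in wild type and 0.447 times in dek33.

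Subunits F and G differed between their copies. Subunit F is a part of the central rotor. Its gene GRMZM2G008232 (chromosome 7, 172242039 to 172247350) had 108 FPKM in dek33 and 70.4 in wild type. GRMZM2G158766 (chromosome 2, 216609662 to 216613179) had 76.6 and 69.6, a log2 ratio of 0.14 that became -0.31 after centring. In wild type the copies were thus level, with GRMZM2G008232 at 50.3% of subunit F FPKM, and in dek33 it held 58.5%. Subunit G pairs with subunit E in the outer stalk. Its main gene GRMZM2G094928 (chromosome 7, 18233221 to 18235350) had 72.4 FPKM in dek33 and 50.3 in wild type. The minor gene GRMZM2G124103 (chromosome 2, 161981401 to 161984108) had 11.4 and 15.5, the lowest of the 21 genes in both libraries and the only V-ATPase gene with a lower value in dek33 on the deposited scale. Its share of subunit G FPKM was 13.6% in dek33 and 23.6% in wild type. Summed over copies, F and G had the smallest dek33 to wild type quotients of the V-ATPase subunits, 1.32 and 1.27, beside 1.49 to 2.09 for the others. F and G turn to lower in dek33 after division by 1.36, the median of single-gene ratios. Against 1.55, that median over genes that reached 20 FPKM, subunits A at 1.53 and B at 1.49 lie lower as well. Against 1.13, the quotient for the summed FPKM of all genes, F, G, A and B each lie higher.

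**Figure D3:**
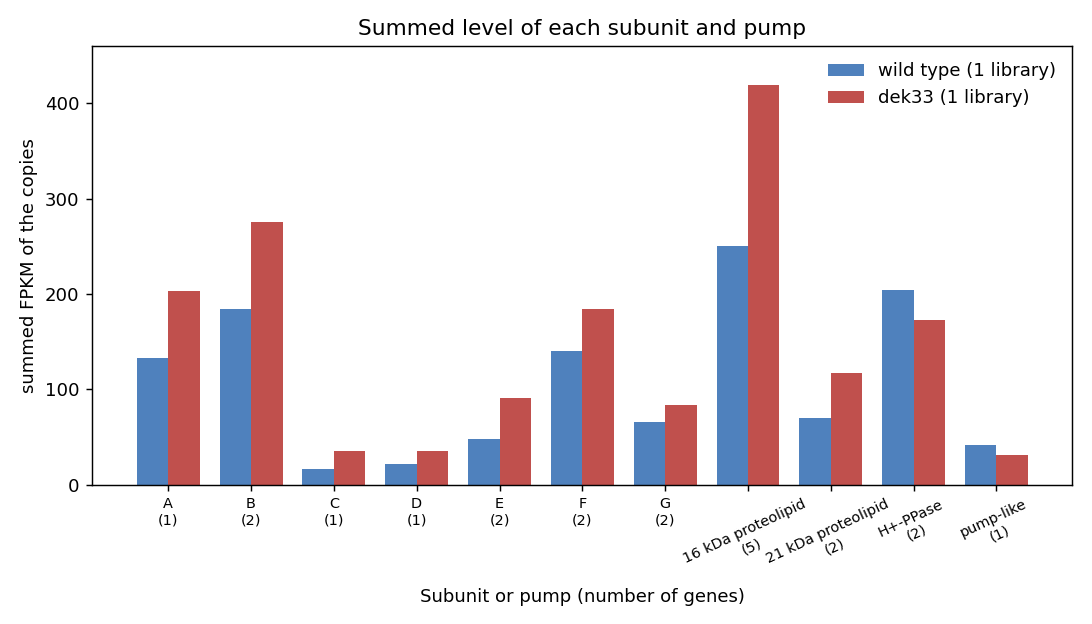
Summed FPKM of all gene copies of each V-ATPase subunit, of the H+-PPases and of the pump-like gene in the wild type and dek33 libraries, with the number of genes in brackets and no error bars because each bar is 1 library. Each V-ATPase subunit has the taller bar in dek33, from 1.27-fold for subunit G to 2.09-fold for subunit C. The H+-PPase and pump-like bars are taller in wild type. F and G turn to lower after division by 1.36, a median of single-gene ratios, and A and B also after division by 1.55. After division by 1.13, the quotient for the summed FPKM of all genes, each V-ATPase subunit stays higher.

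The proteolipids of V0 had higher values in dek33 in all 7 genes, by deposited and by centred ratios, as did 87.4% and 67.1% of all genes that reached 20 FPKM. The 16 kDa proteolipid forms most of the ring that carries protons across the membrane, and its 5 genes lie on 5 chromosomes. GRMZM5G893252 (chromosome 6, 40215243 to 40220495), the most abundant, had 154 FPKM in dek33 and 89.0 in wild type, a log2 ratio of 0.79. GRMZM2G177005 (chromosome 2, 137255040 to 137257585) had 74.8 and 40.5, a log2 ratio of 0.87. The other 3 had nearly equal log2 ratios of 0.62 to 0.67. AC216067.3_FG002 (chromosome 4, 204522927 to 204524924) had 82.6 against 52.9 FPKM. GRMZM2G101020 (chromosome 3, 141387560 to 141390705) had 62.3 against 38.9, and GRMZM2G028432 (chromosome 10, 9542117 to 9544172) had 45.5 against 29.3. The share of each copy in the summed 16 kDa FPKM differed by less than 2 percentage points between the libraries, with GRMZM5G893252 at 36.8% in dek33 and 35.5% in wild type. The description of 4 of the 5 genes, all but GRMZM5G893252, cites the same protein entry. Reads from near-identical copies can be exchanged, so their single values are less certain than their sum, which was 420 in dek33 and 251 in wild type.

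The 21 kDa proteolipid, a second kind of ring subunit, had 2 genes whose descriptions also cite 1 protein entry. GRMZM5G867882 (chromosome 8, 141962398 to 141965773) had 63.1 FPKM in dek33 and 41.0 in wild type, and GRMZM2G143128 (chromosome 3, 224586166 to 224589601) had 53.5 and 28.8. Their log2 ratios were 0.61 and 0.87. The 16 kDa to 21 kDa quotient of summed FPKM was 3.60 in dek33 and 3.59 in wild type, so the proportion of the ring transcripts was nearly the same in both libraries. Each 21 kDa gene has a gene described as the epsilon subunit of mitochondrial ATP synthase near it. GRMZM2G143234 lies 39.7 kb from GRMZM2G143128 on chromosome 3, and GRMZM2G157758 lies 130.1 kb from GRMZM5G867882 on chromosome 8. These neighbours had 143 against 91.8 FPKM and 103 against 60.6. None of the 21 pump loci overlaps the locus of another listed gene.

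The 2 H+-PPase genes differed in direction on the deposited scale, and neither passed 2-fold. GRMZM2G041065 (chromosome 6, 126379841 to 126383030) is described as the pyrophosphate-energized proton pump of the vacuolar membrane. With 159 FPKM it was the most abundant of the 21 genes in wild type, above subunit A of the V-ATPase. In dek33 it had 119 FPKM and ranked 5, below subunit A, the most abundant proteolipid gene and both subunit B genes. Its log2 ratio was -0.41, 1.33-fold lower in dek33, and -0.86 after centring, within the 2-fold limit on both scales. Per FPKM of subunit A it stood at 1.20 in wild type and 0.587 in dek33, a quotient 2.04-fold lower in dek33. The second gene, GRMZM2G069095 (synonyms vpp1 and H+-PPase, chromosome 5, 95940968 to 95948316), had 53.4 FPKM in dek33 and 45.4 in wild type, a log2 ratio of 0.23 that became -0.21 after centring. GRMZM2G041065 thus gave 77.8% of H+-PPase FPKM in wild type and 69.1% in dek33.

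The gene described as a vacuolar proton pump-like protein (GRMZM2G014240, chromosome 9, 14328479 to 14333699) had 30.8 FPKM in dek33 and 42.0 in wild type. Its log2 ratio of -0.43, or -0.87 after centring, was the lowest of the 21 on both scales and within the 2-fold limit. The description does not say which pump or subunit it resembles.

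Genes that work beside the pumps were taken from lists matched on descriptions. ATP synthase, the related rotary enzyme that runs the other way to make ATP in mitochondria and plastids, had 12 of 23 genes at 5 FPKM or more, of which 7 were higher in dek33 and 0 lower, beside 14.8% and 4.02% of all genes at that level. The median log2 ratio of these 12 was 1.03, or 0.59 after centring. After centring 0 of them passed 2-fold, beside 4.4% higher and 6.79% lower among all genes at 5 FPKM or more. For all genes at 5 FPKM or more the median was 0.52 on the deposited scale. Most of the 12 reached 20 FPKM, where the median of all genes was 0.64 and 19.5% were higher. The beta subunit GRMZM2G113408 had 234 FPKM in dek33 and 107 in wild type. The difference between the 1.03 of the ATP synthase genes and the 0.65 of the V-ATPase genes was not tested, because the data hold 1 library per genotype.

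The 14-3-3 proteins, which bind and activate the plasma membrane proton ATPase among other targets, had 10 of 10 genes at 5 FPKM or more, of which 5 were higher and 0 lower. All 10 reached 20 FPKM, where 19.5% of all genes were higher and 4% lower. Their median log2 ratio was 0.98, beside 0.64 for all genes that reached 20 FPKM, or 0.53 after centring. GRMZM2G153823 had 89.1 FPKM in dek33 and 25.4 in wild type. It was the 1 gene of the list still higher after centring, beside 4.4% of all genes at 5 FPKM or more. Soluble pyrophosphatases, which split pyrophosphate without pumping and so draw on the same substrate as the H+-PPase, comprised 2 abundant and 2 minor genes. The abundant GRMZM2G061928 had 189 against 101 FPKM and GRMZM2G104918 had 160 against 80.5, with log2 ratios of 0.89 and 0.98, under the limit. The minor GRMZM2G026470 had 6.04 against 16.5 and GRMZM2G137930 had 11.8 against 23.3. On the deposited scale GRMZM2G026470 was the 1 gene of the 4 counted as lower, beside 4.02% of all genes at 5 FPKM or more. After centring the 2 minor genes counted as lower, beside 6.79% of all genes.

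Exchangers that use the proton gradient had 6 of 9 genes at 5 FPKM or more. Of these 0 were higher and 1 lower, beside 14.8% and 4.02% of all genes at that level. Their median log2 ratio was -0.20, or -0.64 after centring, beside 0.52 for all genes on the deposited scale. The lower one, the sodium/hydrogen exchanger gene GRMZM2G118019, had 2.12 FPKM in dek33 and 26.8 in wild type. The word pattern takes in sodium/hydrogen exchangers of any membrane. Vacuolar sorting and processing genes had 13 of 14 at 5 FPKM or more. Among the 13, 0 were higher and 1 lower, beside the same 14.8% and 4.02% of all genes. Their median was 0.51, near that of all genes. The lower one, vacuolar processing enzyme 1 (GRMZM2G463291), a protease that matures vacuolar proteins, had 4.12 against 25.7 FPKM, while the beta-isozyme GRMZM2G062554 had 103 against 70.1. The embryo markers named above were lower in dek33 as well, and their part in these 2 genes was not tested. In a bulk sample fewer cells of a type and less RNA per cell cannot be told apart. The list of other P-type ATPases held 1 gene, under 1 FPKM in both libraries, and that of flippase partner subunits held 0.

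**Figure D4:**
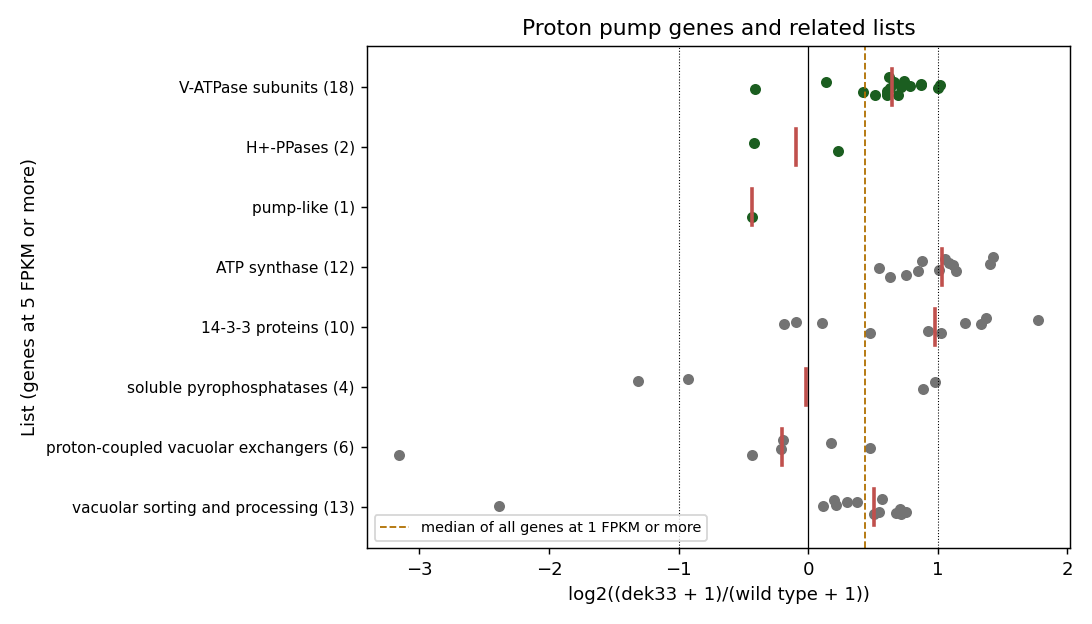
log2((dek33 + 1)/(wild type + 1)) of the pump genes (green) and of related lists (grey), 1 point per gene at 5 FPKM or more with the number in brackets, vertical jitter for display, red bars at the list median, dotted lines at 2-fold and a dashed line at 0.44, the median of all genes at 1 FPKM or more. Most V-ATPase points lie to the right of the dashed line, with a median of 0.65, and 3 lie to its left, as do the H+-PPase and pump-like points. The median of all genes at 20 FPKM or more, not drawn, was 0.64.

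The plasma membrane proton ATPases, P-type pumps that acidify the cell wall and energize uptake, fall outside the search words. Those with an mha synonym in RefSeq, looked up after the values were seen, had low levels. The gene mha4 (GRMZM2G006894) had 9.99 FPKM in dek33 and 9.10 in wild type, mha2 (GRMZM2G019404) had 4.96 and 6.93, and mha1 (GRMZM2G144821) had 1.47 and 0.694. Each of the 3 was below the lowest of the 21 vacuolar pump genes in the same library, and none passed 2-fold on the FPKM + 1 scale. The log2 ratio of mha1 on that scale was 0.54, and its levels were under the 5 FPKM needed to be counted.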

How the data were processed

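Each library has 1 deposited FPKM value per gene, made by the authors with Bowtie 0.12.2 and B73 RefGen_v3 among their tools and builds, per the submitters' processing notes. Not given in the sources used here are the program behind FPKM, the annotation and any pooling of replicates. A value of 1e-05 stands in the place of 0. Samples were grouped by their genotype label. Loci are those of the files with starts raised by 1, since the length of 77.7% of 611 predicted models of up to 1000 bases is then divisible by 3, and of 10.6% without this step. They give no exons. Synonyms come from a RefSeq gene table (NAM-5.0), used for names only, which matched 20 of the 21 genes.

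The pseudocount was 1, and medians took genes that reached 1 FPKM in either library unless stated. Members and lists were chosen with earlier results of these data known. All 21 members are named, more than the rule for named genes required (genes past 2-fold, the 2 most abundant of each family, and the most abundant gene of each subunit). With 1 library per genotype there is no test. Alternatives were pseudocounts of 0.1 and 5, other filters, 3 rescalings and a limit of 4-fold. The counting was run on simulated data with 4-fold differences planted in genes of 20 FPKM or more and a uniform shift between libraries. Differences that large pass a 2-fold limit easily, so the run checks the code and not the counts above. Values were computed in Python 3.11.15 with pandas 2.3.3, numpy 2.4.6 and scipy 1.17.1, and plotted with matplotlib 3.10.9.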

Additional observations from a re-analysis of the deposited data

How the results depend on the processing

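The count of 2 higher pump genes became 0 with a pseudocount of 5, when centred, by trimmed mean of M values, by upper quartile and at a limit of 4-fold, and it was 2 with a pseudocount of 0.1, a minimum of 20 FPKM, no filter or without genes listed at 0. The count of lower genes was 0 under each of these settings. In the order centred, trimmed mean and upper quartile, the median log2 ratio was 0.18, 0.12 and 0.16 for the 21 genes, 0.21, 0.14 and 0.19 for the V-ATPase, and -0.53, -0.60 and -0.55 for the H+-PPases. The V-ATPase median was 0.60 with a pseudocount of 5. These shifts follow from the construction of the settings. Under the 3 rescalings 15 genes had a higher and 6 a lower value in dek33, in place of 18 and 3. GRMZM2G094497, GRMZM2G158766 and GRMZM2G069095 changed sign. Medians of plasma membrane, calcium and phospholipid ATPases were not computed, because 0 genes matched. No paired analysis was possible because there is only 1 library of each genotype. Unknown depth leaves the precision of single values unknown.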
